A study of Mus musculus with 8 samples.

Results

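The 10 genes described here encode elastin, the fibrillins, the fibulins and 2 microfibril-associated glycoproteins (Eln, Fbn1, Fbn2, Fbln1, Fbln2, Fbln5, Efemp1, Efemp2, Mfap2 and Mfap5). Members were picked by gene symbol with earlier results of these data known, and all 10 were listed among 23284 gene symbols. Elastic fibers form outside the cell: fibrillin polymers build microfibrils, fibulins bring elastin and cross-linking enzymes to that scaffold, and lysyl oxidases then cross-link elastin into an insoluble core. Microfibrils are also made without elastin, and they hold latent TGF-beta binding proteins in the matrix. Fibroblasts, smooth muscle cells and mesothelial cells are among the known makers of these proteins.

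The cells were ID8 IP2, a line from mouse ovarian surface epithelium that was passed repeatedly through C57BL/6 mice and that also carries a lentiviral luciferase-mCherry reporter. A pCCL lentivirus gave Notch3IC cells the intracellular part of Notch3 with an HA tag, and GFP by way of an IRES. Control cells received pCCL virus without an insert. Both groups thus share the parental line, the reporter and a lentiviral infection. Separate infections gave matched sets of Notch3IC and Control cells, and the poly-A RNA of Sets 1 to 4 was sequenced, giving 4 libraries per group. As a model the line has limits: it is a single mouse line grown in culture, its Notch3 domain needs no ligand, the promoter of the vector was not given in the sources used here, and the study states that the ID8 IP2 lines were likely mycoplasma positive. Control libraries held 24910528, 19013578, 23601232 and 28208072 gene counts in Sets 1 to 4, and Notch3IC libraries held 22980440, 15524262, 25344051 and 27107061.

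Notch3 itself was read first as a check of the labels. Its normalized count (the count scaled to a common library size) was 38.7, 40.6, 70.8 and 42.0 in the Control cells of Sets 1 to 4, against 4322, 467, 9219.9 and 5842 in Notch3IC cells. Every Notch3IC library was above every Control library, and Set 2 had the smallest rise. Reads from the introduced domain are counted as Notch3, so this value checks the vector. Hey1, Heyl and Nrarp, targets of Notch signaling, were all called higher in Notch3IC cells, though Heyl, with at most 2 counts in a Control library, passed the filter on low counts through its Notch3IC counts.

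Levels per length showed which of the 10 genes these cells used. In CPM (counts scaled to library size) per kilobase of exon, Fbln2 stood first in both groups (212 ± 151 in Control, 373 ± 256 in Notch3IC, SD, n = 4 each), followed by Efemp2 (73.9 ± 7.83 and 93.4 ± 4.32). Fibulin-2, the product of Fbln2, binds fibrillin-1 and elastin, and fibulin-4, the product of Efemp2, brings lysyl oxidase to tropoelastin. Next came Efemp1 at 62.6 ± 25.4 and Fbn1 at 17.1 ± 5.93 in Control cells, whereas in Notch3IC cells Fbn1 came before Efemp1 (50.4 ± 18.2 and 22.6 ± 11.4). The fifth level was that of Fbln5 (9.99 ± 2.87 and 6.77 ± 5.15). Fbln1 lay far lower (0.47 ± 0.187 and 1.22 ± 0.299), and Mfap2 (0.0892 ± 0.0958 and 0.666 ± 0.294) and Eln (0.0257 ± 0.0405 and 0.242 ± 0.229) were lower still.

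Some neighbors in this order had overlapping ranges over the libraries. In Control cells the library ranges of Efemp2 and Efemp1 overlapped (63.6 to 82.3 and 29.3 to 88.0 CPM per kilobase), as did those of Fbn1 and Fbln5 and those of Mfap2 and Eln. In Notch3IC cells the ranges overlapped between Fbn1 and Efemp1 (33.5 to 69.3 and 7.27 to 34.6), between Efemp1 and Fbln5, between Fbln1 and Mfap2, and between Mfap2 and Eln. Within a library, however, Efemp1 exceeded Fbln5 and Fbln1 exceeded Mfap2 in 4 of 4 Notch3IC libraries, while Fbn1 exceeded Efemp1, and Mfap2 exceeded Eln, in 3 of 4. In Control cells the first gene of each overlapping pair was the higher in 2 of 4 libraries for Efemp2 and Efemp1, in 3 of 4 for Fbn1 and Fbln5 and in 2 of 4 for Mfap2 and Eln. The ranges of Fbln2 and Efemp2 were separate in both groups. As a share of the summed per-length level of the 10 genes, Efemp1 made up 5.05%, 17.5%, 27.1% and 28.0% in the Control cells of Sets 1 to 4, against 0.773%, 8.80%, 6.45% and 4.91% in Notch3IC cells, so it was lower within each set. The share of Fbn1 was 3.98%, 6.42%, 3.54% and 4.66% in Control cells and 7.37%, 8.52%, 8.92% and 13.9% in Notch3IC cells, and the groups did not overlap.

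**Figure D1:**
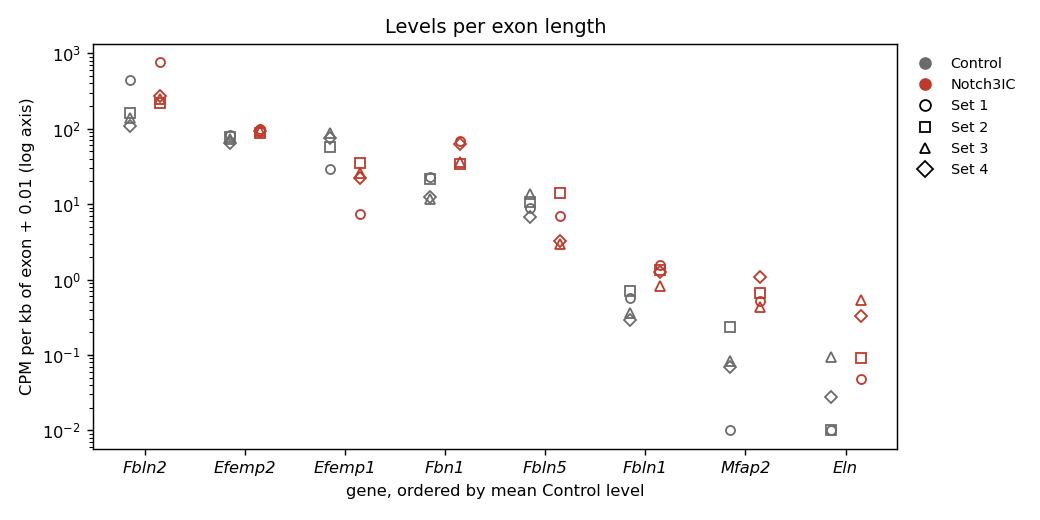
Levels of the 8 elastic fiber genes with more than 2 counts in a library, as CPM per kilobase of exon plus 0.01 on a log axis, with 1 point per library (grey Control, red Notch3IC, shape for the set). Fbln2 is the highest in every library, and Efemp1 is above Fbn1 in all 4 Control libraries and below it in 3 of 4 Notch3IC libraries, Set 2 being the exception.

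Of the 10 genes, 7 passed the filter on low counts and were tested, as part of a fit over 12430 genes. To be called, a gene needed both an adjusted p below 0.1 and a log2 fold change of 1 or more in either direction (edgeR's quasi-likelihood test, Benjamini-Hochberg adjustment over all genes tested). Fbn1, Fbln1 and Mfap2 were called higher in Notch3IC cells, and none was called lower, against 3.4% of all genes tested called higher and 0.74% called lower. Of the 7, 5 had a log2 fold change above 0 and 2 below, with a median of 0.82, while the median over all genes tested was -0.01. Mfap2 passed the filter only through its counts in Notch3IC cells, so its place among the 7 is not independent of its difference. Libraries of the 2 groups did not overlap for 4 of the 7 (Fbn1, Fbln1, Efemp2 and Mfap2), against 10.8% of all genes tested. With set as a block, which allows each set its own level, the same 3 genes were called higher and Efemp1 was called lower, against 5.19% of all genes tested called higher and 2.53% called lower.

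**Figure D2:**
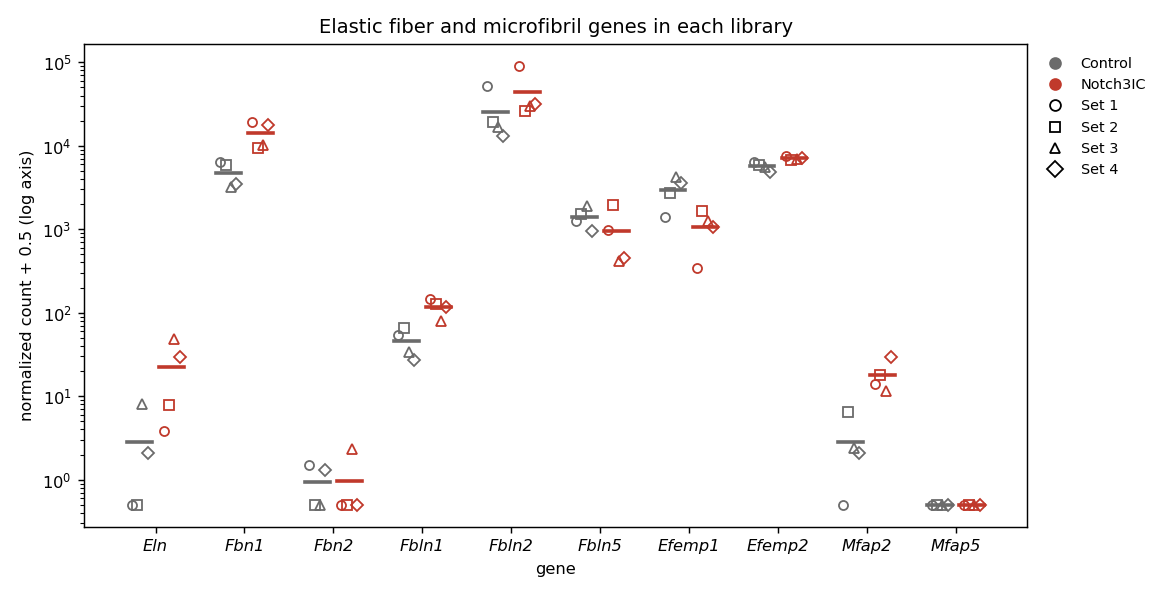
Normalized count plus 0.5 (log axis) of the 10 elastic fiber and microfibril genes in each of the 8 libraries (grey Control, red Notch3IC, shape for the set, bar for the group mean). The Notch3IC points of Fbn1, Fbln1, Efemp2 and Mfap2 lie above all Control points, and Mfap5 is at 0 throughout.

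Among the scaffold genes, Fbn1 rose. It encodes fibrillin-1, the main structural protein of microfibrils, altered in Marfan syndrome. The normalized counts were 6461, 5949, 3219 and 3510 in the Control cells of Sets 1 to 4, against 19416, 9378, 10147 and 17561 in Notch3IC cells. Every Notch3IC library exceeded every Control library, and Set 2 had the smallest ratio. The mean went from 4785 ± 1657 to 14125 ± 5104 (SD, n = 4), a fold of 2.95 (log2 fold change 1.56, SE 0.33, edgeR adjusted p = 0.0435). Within Sets 1 to 4 the log2 ratios were 1.59, 0.66, 1.66 and 2.32. The call depended on single libraries: omitting Control Set 3 gave an edgeR adjusted p of 0.131, omitting Control Set 4 gave 0.143 and omitting Notch3IC Set 4 gave 0.137, with log2 fold changes of 1.38 to 1.74 over all 8 omissions. Calls over all genes fell with the same omissions, from 423 higher to 75, 99 and 155, so the loss was not particular to Fbn1. Another gene, Gm9913, lies on the opposite strand over 20.3% of the exon bases of Fbn1, and whether the counting used strand was not given in the sources used here. Because these are bulk samples, fewer cells of a type and less RNA per cell cannot be told apart for this gene or any other.

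Fbn2, which encodes the second fibrillin, prominent in development, was almost not seen. Its raw counts in Sets 1 to 4 were 1, 0, 0 and 1 in Control cells and 0, 0, 2 and 0 in Notch3IC cells. All 8 libraries were under the 3 counts that a count of 0 allows, equal to 0.102 to 0.188 CPM, so no difference was detectable at this depth.

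Mfap2 encodes MAGP-1, a small glycoprotein that binds fibrillin along the microfibril, and it was low but higher in each Notch3IC library. Its raw counts were 0, 5, 2 and 2 in Control cells and 12, 12, 12 and 34 in Notch3IC cells, and the groups did not overlap. Normalized, the mean went from 2.37 ± 2.54 to 17.7 ± 7.84, with a fitted log2 fold change of 2.93 (SE 0.69, edgeR adjusted p = 0.059). Summed over libraries, 9 counts stood against 70, a ratio after scaling of 8.39 with an exact 95% interval of 4.18 to 19.1 that covers counting error only. Omitting Control Set 2 gave a ratio of 15.1 (5.63 to 56.9). The edgeR adjusted p rose past the threshold on omitting Control Set 3 (0.179), Control Set 4 (0.201), Notch3IC Set 3 (0.114) or Notch3IC Set 4 (0.189). In the same order, these omissions left 75, 99, 201 and 155 of all genes called higher, against 423 with every library. Over the 8 omissions the log2 fold change ran from 2.54 without Control Set 1 to 3.76 without Control Set 2. Mfap5, which encodes MAGP-2, the other member of this family and a known binder of Notch ligands, had 0 counts in all 8 libraries. The limit that a count of 0 allows is again 3 counts per library.

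Elastin itself was near the detection limit. Raw counts of Eln were 0, 0, 8 and 2 in the Control cells of Sets 1 to 4, against 3, 5, 52 and 34 in Notch3IC cells. The Notch3IC library was the higher in each set, but the groups overlapped, since the Control cells of Set 3 had more counts than the Notch3IC cells of Sets 1 and 2. The normalized mean was 2.31 ± 3.64 in Control and 21.8 ± 20.6 in Notch3IC, and the summed counts of 10 and 94 gave a scaled ratio of 10.1 (exact 95% interval 5.28 to 21.8, counting error only). Of the 10 Control counts 8 came from Set 3, and without that Control library the ratio was 38.0 (10.2 to 318), while without the Notch3IC library of Set 3 it was 6.32 (3.12 to 14.1). Eln did not pass the filter and so has no test in the fit described. Without that filter its log2 fold change was 3.16 at an edgeR adjusted p of 0.179, and DESeq2 gave 3.21 at an adjusted p of 0.0767.

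Of the short fibulins that bind tropoelastin, Efemp1 and Fbln5 had log2 fold changes below 0 and Efemp2 above 0, and none was called. Efemp1 encodes fibulin-3, which binds the inhibitor TIMP3 as well as tropoelastin. Its normalized counts were 1391, 2750.4, 4181 and 3580.4 in the Control cells of Sets 1 to 4, against 346, 1644, 1247 and 1057 in Notch3IC cells. Within each set the Notch3IC library was the lower, with log2 ratios of -2.01, -0.74, -1.74 and -1.76, while the groups overlapped because the Control library of Set 1 lay below the Notch3IC library of Set 2. Means were 2976 ± 1208 for Control cells and 1073 ± 543 for Notch3IC cells (log2 fold change -1.47, SE 0.48, edgeR adjusted p = 0.143). The block on set gave -1.56 at an edgeR adjusted p of 0.0264, and DESeq2 without the block gave -1.49 at an adjusted p of 0.0184. Both of these passed the call rule, as did the edgeR fit on omitting Control Set 1 (adjusted p = 0.0841) or Notch3IC Set 2 (adjusted p = 0.0765).

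Fbln5 encodes fibulin-5, which links elastin to cells through integrins. Its normalized counts in Sets 1 to 4 were 1266, 1524, 1914 and 951 in Control cells and 979.7, 1978, 417.5 and 454 in Notch3IC cells. The sets did not move together: Set 2 had a log2 ratio of 0.38, while Sets 1, 3 and 4 had -0.37, -2.20 and -1.07. Control cells averaged 1414 ± 408 and Notch3IC cells 957 ± 727, and the difference was smaller than the spread between libraries (log2 fold change -0.57, SE 0.49, edgeR adjusted p = 0.602). On omitting Notch3IC Set 2 the log2 fold change was -1.20 at an edgeR adjusted p of 0.082. Omitting Notch3IC Set 3 instead gave -0.32, and omitting the whole of Set 3 gave -0.14.

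Efemp2 was the steadiest of the 7. Its normalized counts were 6309, 5864, 5608 and 4872 in the Control cells of Sets 1 to 4, against 7599, 6811, 7041 and 7181 in Notch3IC cells. All Notch3IC libraries were above all Control libraries, by log2 ratios of 0.27, 0.22, 0.33 and 0.56 within the sets. Control cells averaged 5663 ± 602 and Notch3IC cells 7158 ± 331 (log2 fold change 0.34, SE 0.10, edgeR adjusted p = 0.116). With set as a block the edgeR adjusted p was 0.0389, with a log2 fold change still under the limit of 1. Mus81 overlaps 5.27% of its exon bases on the opposite strand.

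The long fibulins, Fbln1 and Fbln2, bind fibronectin, laminins and elastic fibers. Normalized counts of Fbln1 were 53.5, 65.7, 33.5 and 27.0 in the Control cells of Sets 1 to 4, against 147, 126, 78.2 and 117 in Notch3IC cells. The groups did not overlap, although the Control cells of Set 2 came close to the Notch3IC cells of Set 3. The mean went from 44.9 ± 17.9 to 117 ± 28.6, a fold of 2.61 (log2 fold change 1.39, SE 0.33, edgeR adjusted p = 0.061). Omitting Notch3IC Set 1 or Set 4 raised the edgeR adjusted p to 0.116 or 0.169, and omitting Control Set 3 or Set 4 raised it to 0.179 or 0.168. In the same order, 381, 155, 75 and 99 of all genes were called higher, against 423 with every library.

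Fbln2 was the most abundant of the 10 genes, and its level differed between sets. Its normalized counts were 52177, 19518, 16578 and 13172 in the Control cells of Sets 1 to 4, against 90489, 26388, 29559.6 and 32043 in Notch3IC cells. Both libraries of Set 1 stood far above the other sets of their group. Within each set the Notch3IC library was the higher, with log2 ratios of 0.79, 0.44, 0.83 and 1.28. The means of 25361 ± 18064 and 44620.0 ± 30667 differed by less than their spread (log2 fold change 0.82, SE 0.55, edgeR adjusted p = 0.487). The log2 fold change lay between 0.22 and 1.44 as single libraries were left out, lowest without the Notch3IC library of Set 1 and highest without the Control library of Set 1. With set as a block it was 0.84 at an edgeR adjusted p of 0.028, under the limit of 1.

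**Figure D3:**
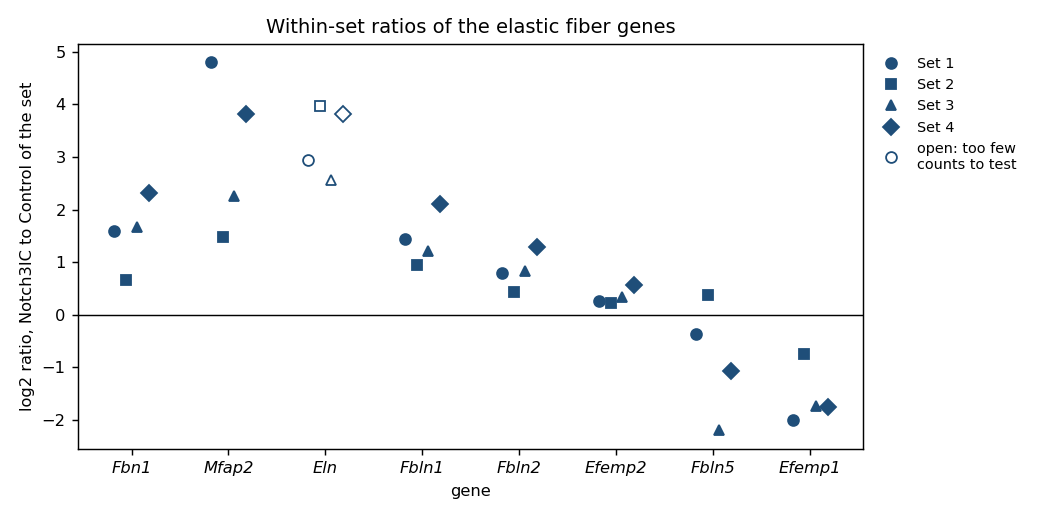
Log2 ratio of Notch3IC to Control within each set for 8 elastic fiber genes (normalized count plus 0.5; shape for the set; open symbols for Eln, which had too few counts to test). Fbn1, Mfap2, Eln, Fbln1, Fbln2 and Efemp2 are above 0 in all 4 sets, Efemp1 is below 0 in all 4, and Fbln5 is above 0 in Set 2 only.

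Set 2 held the lowest ratio for Notch3 and also for Fbn1, Mfap2, Fbln1, Fbln2 and Efemp2, and the ratio nearest 0 for Efemp1, whose ratios were all below 0. The log2 ratio of Notch3 was 6.79, 3.51, 7.01 and 7.10 in Sets 1 to 4. For Fbln5 and Eln, Set 2 held the highest ratio (0.38 and 3.97). The Set 2 ratio of Eln was set against a Control library at 0 counts. What part the Notch3 level of Set 2 had in these ratios was not tested.

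Related genes were also compared as ratios of counts within a library, in 5 pairs. In 2 of them, Fbn2 to Fbn1 and Mfap5 to Mfap2, Fbn2 had at most 2 counts and Mfap5 none, so no ratio is given. Benjamini-Hochberg adjusted p-values are given over the 5 pairs and, an alternative chosen after seeing the data, over the 3 with counts for both genes. The log2 ratio of Efemp2 to Efemp1 was 2.18, 1.09, 0.42 and 0.44 in the Control cells of Sets 1 to 4, against 4.46, 2.05, 2.50 and 2.76 in Notch3IC cells. It was higher in Notch3IC cells within each set, and only the Control library of Set 1 overlapped the Notch3IC range. The group means differed by 1.91 (exact two-sided permutation that ignores sets, p = 0.0571, adjusted 0.143 over 5 pairs and 0.129 over 3). The Fbln2 to Fbln1 log2 ratio was 8.99 ± 0.70 in Control cells and 8.40 ± 0.67 in Notch3IC cells, a difference of -0.59 (exact permutation p = 0.257, adjusted 0.257 over 5 or 3 pairs). As single libraries were omitted, this difference ran from -0.88 (without Notch3IC Set 1) to -0.28 (without Control Set 1). Within each of the 4 sets this ratio was lower in Notch3IC cells, with differences of -0.65, -0.50, -0.38 and -0.82. For Fbln5 to Eln it was 9.86 ± 1.74 and 5.75 ± 2.57, a difference of -4.11 (exact permutation p = 0.0857, adjusted 0.143 over 5 pairs and 0.129 over 3) that rests on the low counts of Eln, and it too was lower in all 4 sets. That difference ranged from -4.85 (without Notch3IC Set 1) to -3.23 (without Notch3IC Set 3) as single libraries were omitted. The smallest p that 4 against 4 libraries can give is 0.0286.

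Over the 8 libraries some of these genes varied together. Pearson's r of log2 normalized counts was 0.93 for Fbn1 with Fbln1 and with Efemp2, -0.91 for Fbn1 with Efemp1, and -0.93 for Fbln2 with Efemp1. These values describe 8 libraries that share sets and fall into 2 groups, so they carry no test. Fbn1 was most like Col5a3 (r = 0.987, n = 8), Elovl4 (0.986) and Adamts12 (0.984). Fbln1 was most like P4ha3 (0.992), Ccdc8 (0.989) and A430110N23Rik (0.986), and Fbln2 was most like Glt25d1 (0.998), a collagen galactosyltransferase. Among all tested genes with a mean of at least 50 normalized counts, Efemp1 was closest to Nxf3 (0.997), Efemp2 to Gnaq (0.989), Fbln5 to Wnt5a (0.960) and Mfap2 to 2700089E24Rik (0.984).

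The proteins that work with elastic fibers were read in 8 lists of 56 genes, of which 55 were in the files and 39 were tested. Of these, 11 were called higher and 1 lower, with a median log2 fold change of 0.34, against 3.4% of all genes tested called higher, 0.74% called lower and a median of -0.01. All 5 lysyl oxidases, which cross-link elastin and collagen, were tested, and Loxl1 and Loxl3 were called higher. Loxl1, the family member tied most closely to elastic fibers, went from 315 ± 126 to 1527 ± 670 normalized counts (log2 fold change 2.28, SE 0.44, edgeR adjusted p = 0.0356), higher in all 4 sets. Loxl3 went from 1020.3 ± 132 to 2689 ± 1044 (log2 fold change 1.40, SE 0.30, edgeR adjusted p = 0.0451), with the Notch3IC library of Set 2 at 1200.1, just under the Control library of Set 1 at 1200.7. Lox, the classic elastin cross-linker, was at 15759.6 ± 3102 and 13389.5 ± 6740, a difference within the spread (log2 fold change -0.24, edgeR adjusted p = 0.756). All 4 latent TGF-beta binding proteins (Ltbp1 to Ltbp4) had log2 fold changes above 0, between 0.28 and 0.84, and none was called. Ltbp1 was called higher on omitting Control Set 1, and Ltbp4 on omitting Notch3IC Set 2 or the whole of Set 2.

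Of 15 other microfibril-associated genes 8 were tested. Adamtsl3, a secreted ADAMTS-like protein, was called higher (58.6 ± 41.1 to 266 ± 113, log2 fold change 2.19, SE 0.55, edgeR adjusted p = 0.0716). Thsd4, whose product ADAMTSL6 binds fibrillin-1 and promotes microfibril assembly, was called lower (622 ± 312 to 143 ± 44.8, log2 fold change -2.12, SE 0.42, edgeR adjusted p = 0.0387), opposite in direction to Fbn1. Mfap4 had at most 1 count in any library, and Emilin1, an elastin-microfibril interface protein and the most abundant of the list, had a log2 fold change of 0.25 (edgeR adjusted p = 0.478). Fbln7, a further fibulin, had 3 to 7 counts in each Control library and 72 to 370 in each Notch3IC library (log2 fold change 5.36, SE 0.51, edgeR adjusted p = 0.0116).

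Among 9 matrix partners 8 were tested and 3 were called higher. These were Bgn, a small proteoglycan that binds tropoelastin (12334 ± 5098 to 39839 ± 14298, edgeR adjusted p = 0.0464), and the basement membrane collagens Col15a1 and Col18a1, with log2 fold changes of 9.16 and 4.51. Fn1, fibronectin, on which fibrillin is assembled, had a log2 fold change of 1.09 that was not called (SE 0.34, edgeR adjusted p = 0.134), with a within-set log2 ratio of 0.01 in Set 2. DESeq2 called Fn1 higher (log2 fold change 1.06, adjusted p = 0.0194), as did edgeR on omitting Notch3IC Set 2 or the whole of Set 2. Of 8 integrin genes 6 were tested, all above 0, and Itgb3, Itgb5 and Itga9 were called higher (log2 fold changes 2.59, 1.65 and 6.70). Among 9 elastolytic proteases 3 were tested and Mmp14, a membrane-bound metalloproteinase, was called higher (5584 ± 996 to 13461 ± 5543, log2 fold change 1.27, edgeR adjusted p = 0.0604), while Mmp12 and Mmp9 had at most 3 and 4 counts and Elane none. None of the 3 elastin receptor complex genes was called. Of the 12 partner genes called, Col15a1, Col18a1, Fbln7 and Itga9 stayed called with any single library left out, and Loxl1, Loxl3, Bgn, Adamtsl3, Thsd4, Mmp14, Itgb3 and Itgb5 did not: on omitting Control Set 3 or Control Set 4 just the first 4 remained. Of those 4, Col15a1, Fbln7 and Itga9 had at most 6, 7 and 17 counts in a Control library, passed the filter through their Notch3IC counts, and were not tested when 10 counts were required in every library. With the whole of Set 3 or Set 4 left out, none was called. Calls over all genes fell as well: 423 were higher as reported, 75 without Control Set 3 and 99 without Control Set 4. Without the whole of Set 3 or Set 4, 1 and 0 of all genes tested were called higher and 0 lower.

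**Figure D4:**
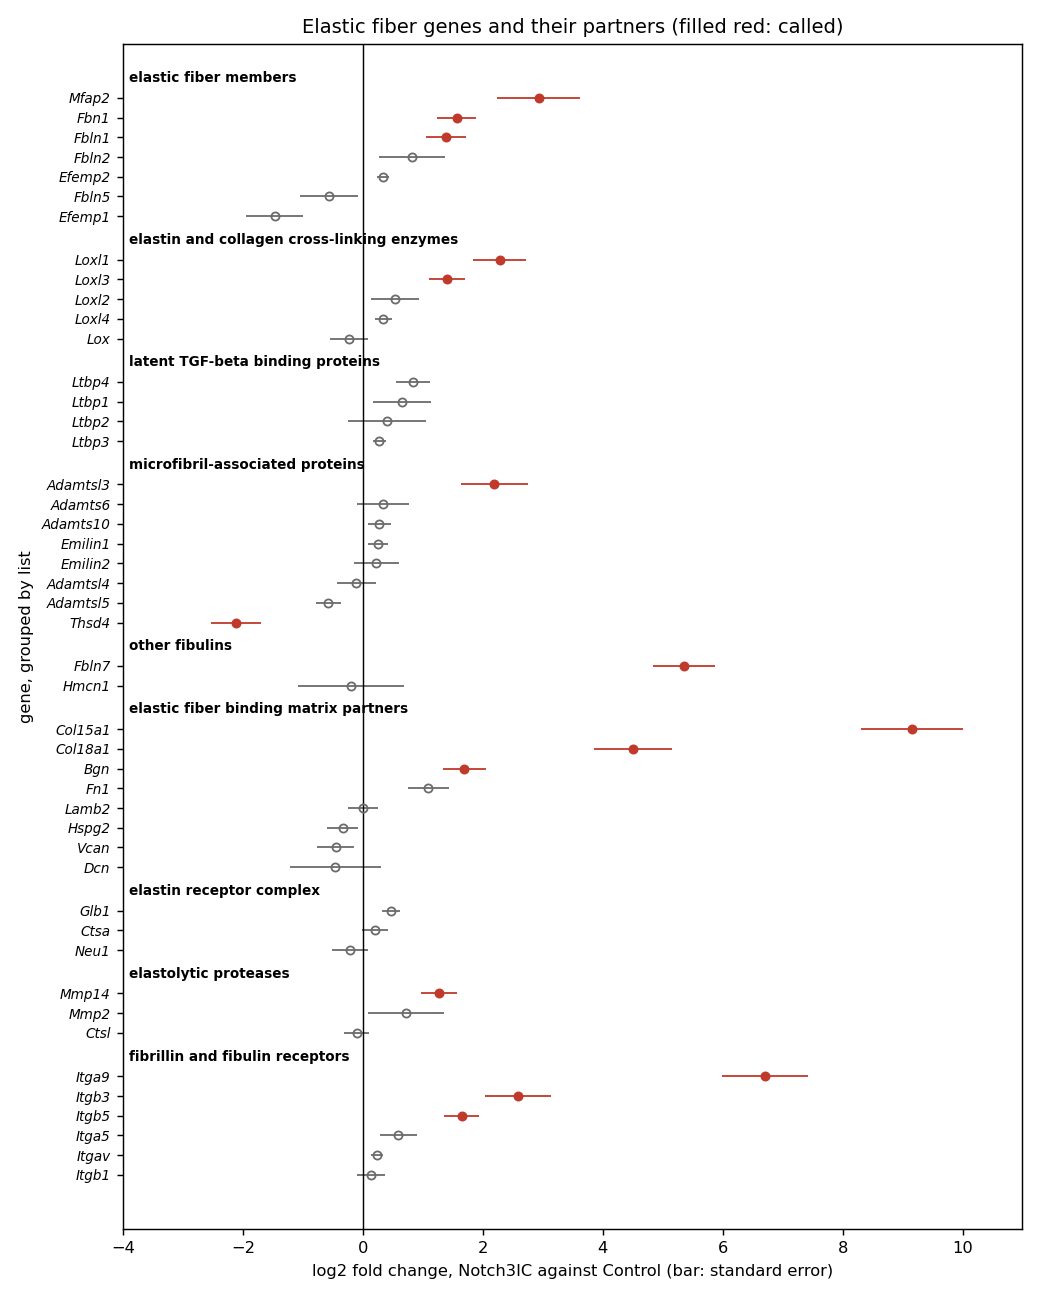
Log2 fold change of Notch3IC against Control (horizontal axis, bar for the standard error, 4 libraries per group) for the 7 tested elastic fiber genes and 39 tested partner genes, grouped by list. Filled red points passed the call rule: 3 elastic fiber genes and 11 partners lie above 0, and Thsd4 lies below.

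Markers of the line and of other makers of elastic fibers were read in the same fit, where 3.4% of all genes tested were called higher and 0.74% lower (5.19% and 2.53% with set as a block). The labelled origin, ovarian surface epithelium, was read in 10 markers of that tissue and of mesothelium: 8 were tested, all 8 had log2 fold changes below 0, and Msln was called lower (log2 fold change -2.60, edgeR adjusted p = 0.0625). With set as a block 4 were called lower: Msln, Krt19, Upk3b and Lrrn4 (log2 fold changes -2.82, -2.10, -1.98 and -1.91). Their summed normalized count in Sets 1 to 4 was 22083, 41905, 66561 and 64438.5 in Control cells and 7092, 26871, 24865 and 19101 in Notch3IC cells, with Upk3b or Wt1 the most abundant, and the groups overlapped through Set 1. Epcam had at most 12 counts and Krt7 at most 46. Like this list, Efemp1 had its lowest value of each group in Set 1 and its lower value in Notch3IC cells.

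Of 6 fibroblast markers 4 were tested, all above 0, and Pdgfrb was called higher (90.6 ± 82.0 to 5643 ± 3587, log2 fold change 5.99, edgeR adjusted p = 0.0169). The block on set added Col1a1 and Col1a2 to make 3 called higher (log2 fold changes 1.04 and 1.15, edgeR adjusted p = 0.0386 and 0.0708). The list sum, mostly Col1a1, was 169838, 120178, 89017 and 67945 in Control cells and 335761, 152043, 194887 and 242039 in Notch3IC cells. Pdgfra, also in the list, was at 4652 ± 2334 and 6530 ± 2474 normalized counts (log2 fold change 0.49, edgeR adjusted p = 0.592). Thy1 and Lum had at most 2 and 4 counts. Of 6 smooth muscle markers 3 were tested, all above 0, and none was called, although all 3 were with set as a block. Their sum, mostly Acta2, was 35590.1, 11257, 7413 and 2956 in Control cells and 78159, 17557, 23147 and 14893 in Notch3IC cells. Myocd had at most 2 counts, Myh11 at most 32 and Des at most 17. In Control cells the smooth muscle sums fell in the same order of sets as Fbln2, highest in Set 1 and lowest in Set 4. In Notch3IC cells, however, Set 4 had the lowest smooth muscle sum and Set 2 the lowest Fbln2. The fibroblast sums followed the order of sets of Fbln2 in both groups, with Set 2 the lowest in Notch3IC cells. Endothelial markers summed to at most 50.3 and leukocyte markers to at most 121 normalized counts in any library, with Pecam1 or Kdr and Cd68 the most abundant, Cdh5 and Ptprc at no more than 2 counts, and Cd3e at 0. The part of these cell states in the elastic fiber values was not tested.

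Promoter sequence was read for motifs of the Notch pathway, since Notch intracellular domains act through the DNA-binding protein Rbpj and through Hey repressors. The letters TGGGAA, the core of the Rbpj motif, and CACGTG, an E-box, were sought on both strands in the 250 bases before each RefSeq start site (GRCm38.p6). Promoters were read for 7 of the 10 genes, with 12 start sites, and none was read for Eln, Fbn2 or Mfap5. TGGGAA was found for 4 of the 7 genes (Fbn1, Fbln1, Fbln5 and Efemp2), against 24.1% of 27025 genes, and CACGTG for Fbln1 alone, against 6.86%. By start site, TGGGAA was found before 5 of the 12, against 21.6% of 32851, and CACGTG before 2, against 6.02%. The same Efemp2 match lay 186 and 231 bases before different start sites, and the same Fbln1 E-box 81 and 140 bases. No match was found for Fbln2, Efemp1 or Mfap2 in this window. A match describes letters and is not a binding site. The 30 bases around each match are shown 5′ to 3′ on the strand of the gene, with the motif in capitals (TTCCCA where TGGGAA lies on the other strand), to set the called genes Fbn1 and Fbln1 beside Fbln5 and Efemp2, which were not called.
Fbn1 (chr2:125506440-125506469, minus strand, 19 bases before the start): tacttgaagaggTGGGAAaggagggggccg
Fbln1 (chr15:85205699-85205728, plus strand, 247 bases before the start): attTTCCCAgcttttaaaaaaaaaatttta
Fbln1 E-box (chr15:85205856-85205885, plus strand, 81 bases before the start): ttagacacttttCACGTGactttctgcctg
Fbln5 (chr12:101819255-101819284, minus strand, 153 bases before the start): ttaagcctcgggTTCCCAattgctcacgcg
Efemp2 (chr19:5474492-5474521, plus strand, 186 bases before the start): ggatccaaacttTGGGAAactctggctggg
Members with these letters had log2 fold changes of 1.56 (Fbn1), 1.39 (Fbln1), -0.57 (Fbln5) and 0.34 (Efemp2). Those without a match in the 250 bases read had 0.82 (Fbln2), -1.47 (Efemp1) and 2.93 (Mfap2). The part of these letters in the values was not tested.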

How the data were processed

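Per the labels and the study's methods, poly-A RNA of 8 lines was sequenced and the authors deposited raw read counts per gene symbol for each library (TopHat, Cufflinks, DESeq and mm9 are named in the processing notes, without versions). The annotation and the use of strand were not given in the sources used here. Lines came from separate infections of 1 parental line, so p-values measure the spread between these lines. Counts were tested with edgeR 4.0.16 (R 4.3.3): filterByExpr, TMM scaling, robust quasi-likelihood F test on condition, Benjamini-Hochberg adjustment over 12430 genes, SE taken from the fold change and F. Normalized counts are counts over TMM-scaled library size, times the mean of those sizes, and a pseudocount of 0.5 was added for within-set ratios. Exon lengths and overlaps came from GENCODE M21 by symbol, not from mm9. The 10 genes and all partner and marker lists were chosen with earlier results of these data known. Named were all 10 genes, the genes of the lists (called ones first, then the most abundant), the 3 genes most like each tested member, of which some are given, and 4 Notch checks. Set numbers pair the libraries: deviations from the group mean correlated at 0.41 to 0.79 within a set and at -0.51 to 0.40 between sets, and a set marks a shared infection round. No 2 libraries were identical. The fit was tested on simulated data. Alternatives were the set block, DESeq2 1.42.0, 3 other scalings, 2 other filters, 2 other call rules, and omission of each library and set.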

Additional observations from a re-analysis of the deposited data

Results flagged for a closer look

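In 3 of 20 groups of 4 libraries, 1 library lay far from the rest by Dixon's test at the 95% level. Chance would give about 1 if the groups were independent, which they are not, since matched libraries share a set. For Fbln2 the library of Set 1 stood apart in both groups, at 52177 normalized counts in Control cells (the others lay between 13172 and 19518) and at 90489 in Notch3IC cells (the others lay between 26388 and 32043). For Fbn2 the Notch3IC library of Set 3 was at 1.84 normalized counts with the other 3 at 0, which is 2 raw counts. Beside 3 libraries at 0, any count at all would have been flagged.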

How the results depend on the processing

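Counts of calls over all genes moved with the set block, the tool and the libraries included: 423 genes were called higher as reported, 645 with set as a block and 707 by DESeq2, and 92 were called lower, 315 with the block and 192 by DESeq2. At an adjusted p below 0.05, 290 of 12430 genes were called higher and 48 lower, and without a limit on the fold 622 and 210. Members called higher were 1 (Fbn1) at an adjusted p below 0.05, and Efemp1 was the 1 member called lower with the block or by DESeq2, while DESeq2 also called Eln higher. The block changed no other member's call. With single libraries left out, genes called higher ranged from 75 to 702 and lower from 8 to 305, and with whole sets left out from 0 to 670 and from 0 to 229. Members called higher ranged from 0 to 3 and members called lower from 0 to 2. None was called higher without the Control library of Set 3 or Set 4, without the Notch3IC library of Set 4, or without the whole of Set 3 or Set 4, where the edgeR adjusted p of Fbn1 was 0.246 and 0.387 and 1101 and 1011 genes were at an unadjusted p below 0.05. No member changed direction under any alternative that was run. With a pseudocount of 5 in place of 0.5, the Fbln5 to Eln log2 ratio differed by -2.51 (exact permutation, adjusted p = 0.0477 over 5 pairs, 2 of them without usable counts, and 0.0856 over the other 3). Over the 3 pairs the adjusted p of Efemp2 to Efemp1 ran from 0.0856 to 0.256 across the other pseudocount and the 8 omissions, by exact permutation. Other scalings left the median of all genes between -0.04 and -0.01. Mfap2 was not tested with at least 10 counts required in every library. Depth limits Eln, Fbn2, Mfap2 and Mfap5, each at most 52 counts in a library.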
